A study of Mus musculus with 18 samples.

Results

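The comparison described here sets mouse primary chondrocytes cultured at 1% oxygen (hypoxia) against chondrocytes cultured at 21% oxygen (normoxia), both sampled at 12 h without cytokine. Its members are 6 libraries of the 18 in the series, 3 from hypoxia and 3 from normoxia, chosen by the oxygen condition, time and treatment in the sample labels. The rule uses no measured value. The cells are wild type, come from cartilage and spent the 12 h in medium without serum. The remaining 12 libraries are hypoxia and normoxia at 0 h and at 12 h with IL-6 (interleukin-6, a cytokine) at 100 ng/ml, again 3 each; they entered the model fit and are used below to see whether the oxygen difference held in other libraries. The protocol speaks of IL-6 or its receptor IL-6R, while the labels name IL-6 alone. The labels give neither the age of the mice nor say if the 3 libraries of a group are of separate mice or dishes. All p-values therefore measure the spread among these libraries, which may be technical.

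Cartilage has no blood vessels, and chondrocytes live at lower oxygen than most cells. In mammalian cells a fall in oxygen stabilizes the hypoxia-inducible transcription factors, which raise genes of glycolysis, glucose uptake and blood vessel growth, and lower mitochondrial respiration. In cartilage these factors are known for their part in chondrocyte survival and matrix production.

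The values are read counts for 63244 UCSC transcript identifiers. The deposited table pairs no identifier with a gene, and 0 of the 63244 were found in the gene tables used here, so no transcript below has a gene name, a known role or a printed sequence. The lists of hypoxia-inducible, glycolytic and cartilage genes could not be read for that reason, and the labelled cell type could not be set against its markers. Where a transcript is described by its rank, the rank stands in for the name. Each identifier is a transcript, several can belong to 1 gene, and reads that fell on overlapping transcripts were not assigned, so levels of overlapping transcripts come from part of their reads. In RNA from a whole culture, fewer cells of a type and less RNA per cell cannot be told apart.

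Assigned counts ran from 3587239 to 6377596 in the hypoxia libraries and from 6695412 to 8953193 in the normoxia libraries, so every hypoxia library was shallower than every normoxia library. The means were 4861150 ± 1410901 and 8195559 ± 1299187 (SD, n = 3 each; exact permutation p = 0.1, two-sided; adjusted p = 0.3 over 6 library measures). No smaller exact p is possible for 3 libraries against 3. A count of 0 allows up to 3 counts, which is 0.836 CPM (the usual depth-scaled count, here by the assigned total and elsewhere by the TMM-scaled total) in the shallowest of the 6 libraries and 0.335 CPM in the deepest, for counting error only. At least 1 count was found for 20313 ± 1213 identifiers per hypoxia library and 22640 ± 445 per normoxia library (SD, n = 3 each; exact permutation p = 0.1). After all 18 libraries were thinned to 3088280 counts these numbers were 18915 ± 603 and 19160 ± 598 (SD, n = 3 each; exact permutation p = 0.9). Reads outside annotated features made up 20.8% ± 6.06 of uniquely aligned reads in hypoxia and 16.6% ± 4.23 in normoxia (SD, n = 3 each; exact permutation p = 0.5). They reached 27.1% in hypoxia replicate 3, against 20.4% and 15.0% in hypoxia replicates 1 and 2.

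Sequencing lane and oxygen were nearly confounded among the 6 libraries. Lane 3 held hypoxia replicate 1 and normoxia replicate 2, and the other 4 libraries each had a lane that no untreated 12 h library of the opposite condition shared (lanes 6 and 8 for hypoxia, lanes 2 and 7 for normoxia). Hypoxia replicate 3 stood apart from its group. The median absolute log2 difference in CPM was 0.36 between hypoxia replicates 1 and 2, 0.50 between 1 and 3, and 0.67 between 2 and 3. In normoxia the 3 pairs were at 0.31, 0.44 and 0.52. Pairs made of 1 hypoxia and 1 normoxia library were at 0.43 to 0.67, so for a typical transcript 2 libraries of opposite oxygen conditions were about as far apart as 2 libraries of the same condition.

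At 12 h, 741 of 13432 tested identifiers differed between hypoxia and normoxia, which is 5.52%. Of these, 261 were higher in hypoxia (1.94% of those tested) and 480 were lower (3.57%), by edgeR's quasi-likelihood test at a Benjamini-Hochberg adjusted p under 0.05. Changes of at least 2-fold made up 539 of the calls (4.01% of those tested), 236 higher and 303 lower. At larger sizes the balance turned, with 94 higher and 72 lower at least 4-fold, and 31 higher and 18 lower at least 8-fold. At least 16-fold there were 15 higher and 4 lower. Most of the changes past 8-fold were in identifiers averaging under 5 CPM, where the fold rests on few counts. Among called identifiers at 5 CPM or more without overlap, the eleventh largest rise was 2.94 and the seventh largest fall -2.90 on the log2 scale, both under 8-fold. The median log2 fold change was 1.62 among the higher calls and -1.19 among the lower calls, beside 0.07 over all tested identifiers.

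**Figure D1:**
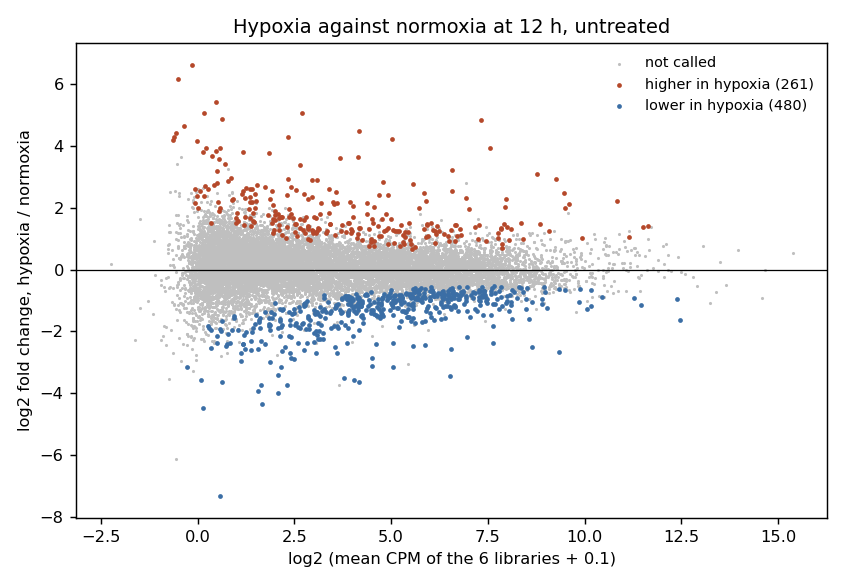
Log2 fold change of hypoxia over normoxia at 12 h untreated (vertical) against the log2 of the mean CPM of the 6 libraries plus 0.1 (horizontal), 1 point per tested identifier; red points were called higher and blue points lower in hypoxia by edgeR. The 261 higher calls hold more changes past 8-fold (31) than the 480 lower calls (18), and the lower calls crowd at small changes on the right, where levels are high. Most of the changes past 8-fold lie under 5 CPM, where counts are few.

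The number called depended on which libraries were in the fit. With only the 6 compared libraries it fell to 300 (112 higher, 188 lower), of which 294 were among the 741. Leaving out any 1 of the 6 libraries gave 395 (without hypoxia replicate 1) to 498 (without hypoxia replicate 3), and 267 identifiers, 84 higher and 183 lower, were called in all 6 of those fits. A fit with lane as a term, added once the data had been seen, called 1581, of which 577 were higher and 1004 lower, and it held 680 of the 741. Thinned to equal depth, likewise a later choice, the libraries gave 569 calls (208 higher, 361 lower), and 519 of the 741 were among these. The largest counts came with the replicate number as a block (1723, of which 706 were higher and 1017 lower) and with the block and lane together (1774, 829 higher and 945 lower, with 582 of the 741 among them). In each of these fits lower calls outnumbered higher ones, and the higher share of calls was between 25.9% (without normoxia replicate 3) and 46.7% (with the block and lane), against 35.2% in the full fit.

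Most transcripts did not differ beyond the spread. The middle 80% of tested identifiers had log2 fold changes between -0.74 and 0.89, and 7410 of 13432 (55.2%) had a positive one. The 2 groups did not overlap, with all 3 hypoxia libraries on the same side of all 3 normoxia libraries, for 1314 identifiers on the higher side (9.78%) and 1723 on the lower side (12.8%). Of the called identifiers, 258 of 261 higher and 480 of 480 lower were among those without overlap. The calls and the overlap rest on the same counts, so this largely follows from the calling.

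By counts, the excess of lower calls lay in transcripts of middle and high level. Among the 2790 identifiers at 20 to 100 CPM, 66 were called higher (2.37%) and 182 lower (6.52%). Among the 1674 at 100 CPM and above, 39 were called higher (2.33%) and 101 lower (6.03%). At 5 to 20 CPM the counts were 69 (2.5%) and 126 (4.57%) of 2757. At 1 to 5 CPM they were nearly equal, with 75 higher (1.35%) and 69 lower (1.24%) of 5569, and under 1 CPM 12 were higher (1.87%) and 2 lower (0.312%) of 642. At 100 CPM and above, 33 of the 39 higher calls but 40 of the 101 lower calls reached 2-fold. The change that could be called shrank with level: the smallest called log2 change was 1.99 in size under 1 CPM, 1.03 at 1 to 5 CPM, 0.78 at 5 to 20 CPM, 0.56 at 20 to 100 CPM and 0.54 above. In this fit no change under 2-fold was called in transcripts below 5 CPM.

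**Figure D2:**
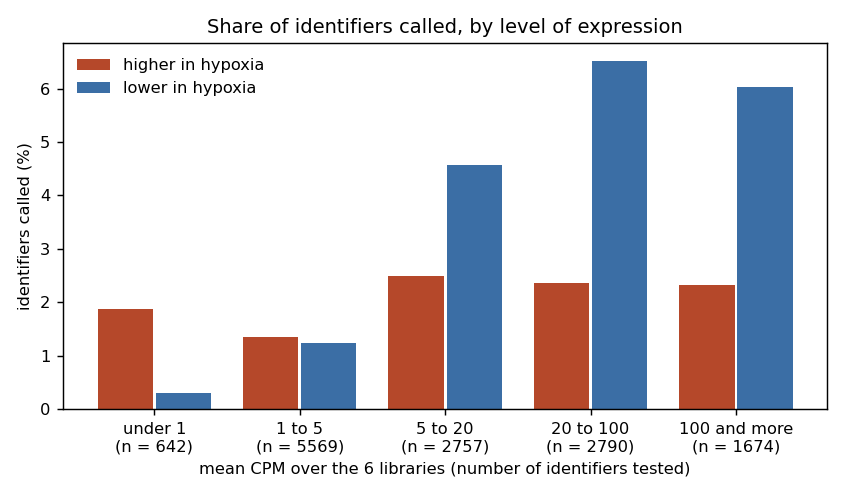
Percent of tested identifiers called higher (red) or lower (blue) in hypoxia at 12 h untreated, by mean CPM over the 6 libraries. The lower bars exceed the higher bars from 5 CPM upwards, with 6.52% against 2.37% at 20 to 100 CPM, and not below.

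The called transcripts held a small part of the assigned counts, which are themselves only part of the reads. Those called higher held 3.57%, 4.03% and 3.40% of assigned counts in hypoxia replicates 1 to 3, against 1.06%, 1.47% and 1.36% in normoxia replicates 1 to 3. Those called lower held 3.84%, 3.28% and 3.48% in hypoxia and 7.58%, 7.34% and 7.63% in normoxia. The 3 libraries of each condition lay close together and the conditions lay apart on both measures, as the choice of identifiers by the same counts fixes. In mean terms the higher group was at 3.67% ± 0.326 in hypoxia and 1.30% ± 0.213 in normoxia, and the lower group at 3.54% ± 0.284 and 7.52% ± 0.153 (SD, n = 3 each).

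**Figure D3:**
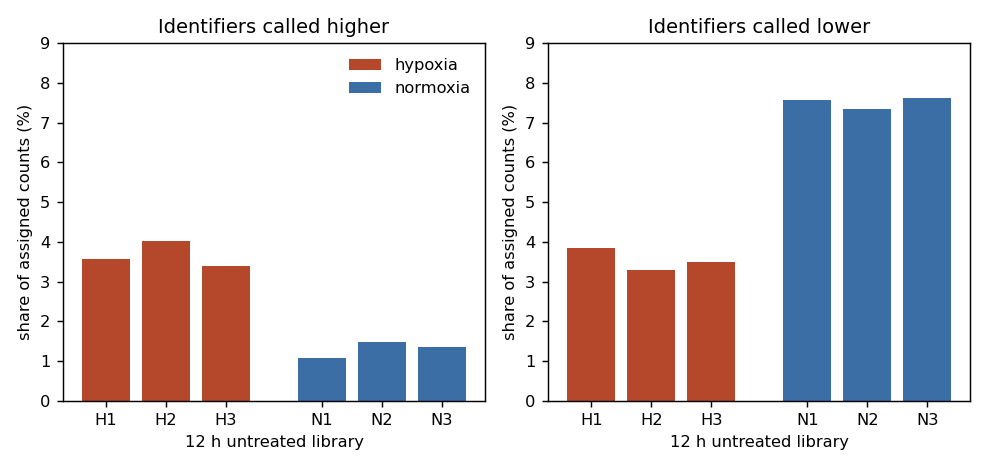
Share of each library's assigned counts held by the 261 identifiers called higher (left) and the 480 called lower (right), 1 bar per library, H1 to H3 from hypoxia and N1 to N3 from normoxia at 12 h untreated. The lower group takes 3.28% to 3.84% in hypoxia and 7.34% to 7.63% in normoxia; the identifiers were chosen on these counts, so the gap is a description.

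The most abundant transcripts were mostly shared. Of the 10 identifiers with the highest mean CPM in each condition, 7 were the same. Of the normoxia 10, 1 was called, uc009vey.1, which is described below. The 10 most counted identifiers of a library took 17.3% ± 3.84 of its counts in hypoxia and 17.9% ± 3.76 in normoxia (SD, n = 3 each; exact permutation p = 0.5).

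The largest rise at 5 CPM or more was in uc007tbv.2, the first of 174 identifiers that were called, averaged 5 CPM or more in the 6 libraries and did not overlap between the groups. It was at 13.1, 16.2 and 7.72 CPM in hypoxia replicates 1 to 3, against 0.462, 0.220 and 0.419 CPM in normoxia replicates 1 to 3. The lowest hypoxia library, replicate 3, was still far above the highest normoxia library. The normoxia levels rest on 3, 2 and 4 counts and the hypoxia levels on 64, 96 and 29 counts. It rose by 5.05 on the log2 scale (SE 0.48, edgeR adjusted p = 1.38e-05), and the ratio of pooled CPM was 36.3 with an exact binomial 95% interval of 18.7 to 80.6 that covers counting error only. In lane 3 alone, the hypoxia library exceeded the normoxia library by 5.90 on the log2 scale. With the replicate block and lane in the fit its log2 change was 3.55 (edgeR adjusted p = 0.0190), below the 4.84 that the full fit gave the second riser; the ranking was not redone in that fit.

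Behind it, the second riser by size had 307, 299 and 328 CPM in hypoxia and 11.5, 11.3 and 9.74 CPM in normoxia. Its replicates lay close together, and its standard error was the smallest of the 10 largest risers (log2 change 4.84, SE 0.29, edgeR adjusted p = 3.82e-08). The fourth riser was also even, at 53.7, 64.4 and 68.2 CPM in hypoxia and 3.70, 3.42 and 2.93 CPM in normoxia. The fifth stood at 411, 374 and 282 CPM in hypoxia and 30.9, 23.7 and 15.8 CPM in normoxia. The tenth was the most abundant of these 10, at 789, 1135 and 404 CPM in hypoxia and 64.5, 117 and 91.4 CPM in normoxia, and here the hypoxia libraries themselves differed by more than 2-fold.

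Together the 10 largest risers had log2 fold changes from 3.09 to 5.05 and edgeR adjusted p from 3.82e-08 to 0.0269. They spanned low and high levels, from means of 11.2 to 776 CPM in hypoxia, against 0.367 to 90.9 CPM in normoxia. All 10 were also called with only the 6 compared libraries in the fit, and 9 of 10 in all 6 fits that left out 1 library. The exception, the ninth riser, had 156, 155 and 201 CPM in hypoxia and 30.0, 13.1 and 12.1 CPM in normoxia, and the largest standard error of the 10 (log2 fold change 3.22, SE 0.80).

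The transcript of highest level among 233 that rose at least 2-fold without overlap was uc009eml.1. It was at 4761, 5623 and 3557 CPM in hypoxia, against 1119, 2154 and 2024 CPM in normoxia. Hypoxia replicate 3 was the lowest of its group and normoxia replicate 1 was the lowest of all. It was the 20th most abundant tested identifier in hypoxia and the 60th in normoxia. On the log2 scale it rose by 1.40 (SE 0.32, edgeR adjusted p = 0.0139). That call was lost with only the 6 compared libraries in the fit (adjusted p = 0.0570), without hypoxia replicate 2 (adjusted p = 0.0579) and without normoxia replicate 1 (adjusted p = 0.0722), over a range of 3.07e-06 to 0.0722 across all alternatives.

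The 10 of highest level rose by 1.02 to 2.94 on the log2 scale. The second of them was at 3143, 5084 and 4360 CPM in hypoxia and 1339, 1913 and 1620 CPM in normoxia. The fourth rose further, to 2628, 4590 and 1798 CPM in hypoxia, against 616, 730 and 597 CPM in normoxia (log2 fold change 2.21, SE 0.39, edgeR adjusted p = 0.00287). The sixth was at 1104, 1006 and 1681 CPM in hypoxia and 323, 300 and 248 CPM in normoxia. The ninth, at 1135, 1446 and 663 CPM in hypoxia and 101, 199 and 122 CPM in normoxia, had the largest change of these 10, 2.94 on the log2 scale. In 8 of the 10 hypoxia replicate 2 was the highest hypoxia library, and in 7 of the 10 replicate 3 was the lowest; whether the replicate or its lane moved them cannot be told apart. Of the 10, 4 were called in all 6 fits that left out 1 library and 6 with only the 6 libraries.

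By the same rule, the largest fall among 409 identifiers was in uc008okq.1. It had 3.28, 1.52 and 3.20 CPM in hypoxia, from 16, 9 and 12 counts, against 48.0, 36.0 and 15.2 CPM in normoxia. The normoxia libraries were more than 3-fold apart, and the lowest of them, replicate 3, was well above the highest hypoxia library. On the log2 scale the change was -3.65 (SE 0.41, edgeR adjusted p = 9.33e-05). The pooled ratio of hypoxia to normoxia was 0.0815 (exact binomial 95% interval 0.0570 to 0.113, counting error only), and the lane 3 libraries gave a log2 ratio of -3.46.

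The 10 largest falls had log2 fold changes of -3.65 to -2.71 and edgeR adjusted p from 2.45e-06 to 0.0366. Their means lay between 1.19 and 15.1 CPM in hypoxia and between 9.07 and 168 CPM in normoxia. The fourth was the most abundant, at 10.3, 26.4 and 8.79 CPM in hypoxia and 143, 151 and 211 CPM in normoxia. The fifth had the smallest spread, with 6.36, 6.26 and 7.19 CPM in hypoxia, against 69.4, 60.8 and 46.8 CPM in normoxia (log2 fold change -3.16, SE 0.26). The seventh and the eighth each had 1 hypoxia library with no count. Of these 10, 6 were called in all 6 fits that left out 1 library, and 8 with only the compared libraries.

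The transcript of highest level among 303 that fell at least 2-fold without overlap was uc009vey.1. It stood at 3440, 2577 and 2191 CPM in hypoxia, against 6635, 9278 and 9784 CPM in normoxia. Every normoxia library was far above the highest hypoxia library, replicate 1. It was the 10th most abundant tested identifier in normoxia and the 42nd in hypoxia. The log2 change was -1.65 (SE 0.27, edgeR adjusted p = 0.00186), it was -1.43 between the 2 lane 3 libraries, and the call held in all alternatives tried, at adjusted p from 1.99e-08 to 0.0241.

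The other abundant fallers fell mostly by 2-fold to 3-fold. The second by level was at 2177, 1449 and 1646 CPM in hypoxia and 4385, 3329 and 3929 CPM in normoxia. The fourth was at 680, 555 and 638 CPM in hypoxia and 1194, 1555 and 1813 CPM in normoxia. The sixth and the ninth fell further. The sixth was at 220, 181 and 134 CPM in hypoxia, against 1429, 1327 and 611 CPM in normoxia (log2 fold change -2.65, SE 0.35, edgeR adjusted p = 0.000314). The ninth was at 102, 172 and 81.7 CPM in hypoxia, against 615, 823 and 599 CPM in normoxia (log2 fold change -2.51, SE 0.30, edgeR adjusted p = 0.000132). Of these 10, 6 were called in all 6 fits that left out 1 library. The identifiers of the fourth and the seventh (log2 fold changes -1.28 and -1.24) come directly after uc009vey.1 in naming order. Whether they belong to the same gene is not known here, so the 10 may not be separate cases.

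**Figure D4:**
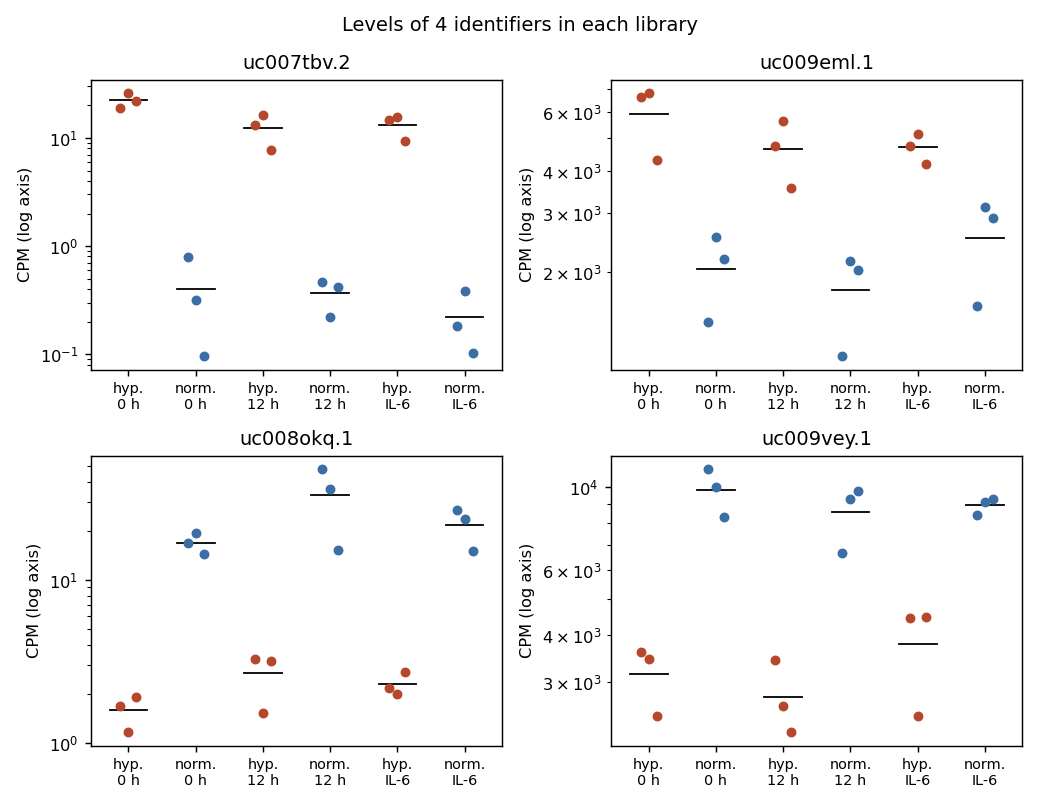
CPM on a log axis of uc007tbv.2 and uc009eml.1 (top, higher in hypoxia) and uc008okq.1 and uc009vey.1 (bottom, lower in hypoxia) in all 18 libraries, with hypoxia in red left of normoxia in blue at 0 h, at 12 h untreated and at 12 h with IL-6; points are replicates 1 to 3 from left to right and lines are means. At 12 h untreated, uc007tbv.2 lies at 7.72 to 16.2 CPM in hypoxia and 0.220 to 0.462 CPM in normoxia, and the conditions do not overlap for any of the 4 identifiers.

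Switching a transcript fully on or off was rare at this depth. There were 2 tested identifiers with no count in the 3 hypoxia libraries and counts in all 3 normoxia libraries, of which 1 was called, and the more abundant of them averaged 2.81 CPM in normoxia. There were 2 with counts in all 3 hypoxia libraries and none in normoxia, both called, with a mean of at most 1.62 CPM in hypoxia. These levels are within a few times the floor set by the depth.

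The 3 hypoxia libraries did not contribute alike. Among the 261 higher calls, hypoxia replicate 2 was the highest of its group for 117, replicate 3 for 100 and replicate 1 for 44. Replicate 3 was also the lowest of its group for 112, so it tended to lie at an extreme. Measured from each hypoxia library alone against the normoxia mean on the log2 CPM scale, the median change of the higher calls was 1.48, 1.67 and 1.51 for replicates 1 to 3, and that of the lower calls was -1.14, -1.12 and -1.17. The size of the typical called change was thus close in all 3, although the libraries chose the identifiers and these values carry no test.

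The oxygen difference was then followed in the libraries taken at 0 h and at 12 h with IL-6, which share no library with the 12 h untreated comparison. The identifiers were chosen at 12 h, which favours larger values there, and same-numbered libraries of 1 oxygen condition deviated together, so those libraries are not fully independent. The libraries at 0 h and with IL-6 also entered the fit that called the identifiers, through the filter and the estimate of spread. That can favour identifiers with even values in those libraries, so the rates below partly follow from the choice. Of the 261 called higher, 260 had a positive log2 fold change at 0 h and 259 with IL-6. Of the 480 called lower, 476 had a negative one at 0 h and 479 with IL-6. The shares of all tested identifiers with each sign in those states were not computed. The higher calls had medians of 1.45 at 0 h, 1.62 at 12 h untreated and 1.40 with IL-6, beside 0.04, 0.07 and 0.03 over all tested identifiers. The lower calls had medians of -0.97, -1.19 and -0.87 in the same order.

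Hypoxia and normoxia did not overlap at 0 h for 223 of the 261 higher calls (85.4%), where 10% of all tested identifiers were higher without overlap. With IL-6 it was 215 (82.4%), against 7.97% of all tested. For the 480 lower calls the numbers were 422 at 0 h (87.9%), against 11.9% of all tested, and 423 with IL-6 (88.1%), against 9.05%. Called again in the same direction at 0 h were 161 higher (61.7%, where 2.13% of all tested were called higher) and 265 lower (55.2%, where 2.82% were called lower). With IL-6 they were 132 higher (50.6%, background 1.34%) and 184 lower (38.3%, background 1.56%). Over all tested identifiers, 286 were called higher and 379 lower at 0 h, so the conditions already differed then. The 12 h is therefore not the time since the oxygen difference arose.

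**Figure D5:**
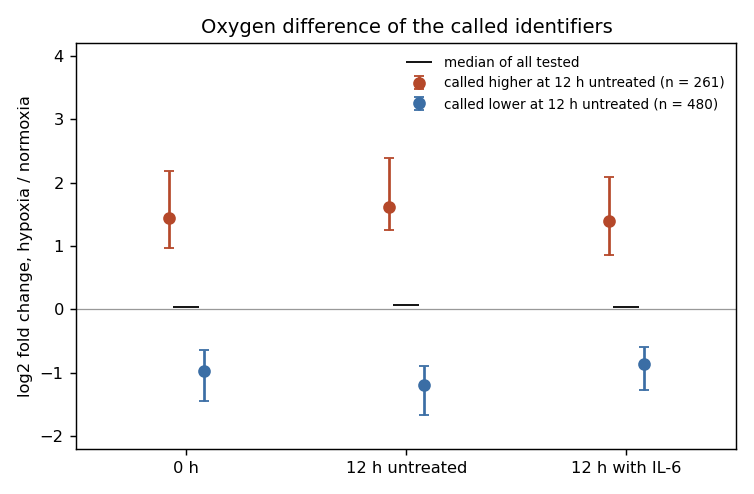
Median log2 fold change of hypoxia over normoxia, with bars from the lower to the upper quartile, at 0 h, 12 h untreated and 12 h with IL-6 for the identifiers called higher (red, n = 261) and lower (blue, n = 480) at 12 h untreated; black dashes are the median of all tested identifiers. The medians are 1.45, 1.62 and 1.40 for the higher calls and -0.97, -1.19 and -0.87 for the lower calls; the identifiers were chosen on the middle values.

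The 4 printed transcripts kept their direction in both other states. The identifier uc007tbv.2 was at 22.3 ± 3.52 CPM in hypoxia and 0.400 ± 0.353 CPM in normoxia at 0 h, and with IL-6 at 13.2 ± 3.38 and 0.222 ± 0.143 CPM (SD, n = 3 each). The identifier uc008okq.1 was at 1.58 ± 0.382 CPM in hypoxia and 16.9 ± 2.42 CPM in normoxia at 0 h, and with IL-6 at 2.29 ± 0.385 and 21.9 ± 6.10 CPM (SD, n = 3 each). The abundant faller uc009vey.1 was at 3154 ± 639 CPM in hypoxia and 9840 ± 1440 CPM in normoxia at 0 h, and with IL-6 at 3785 ± 1181 and 8950 ± 452 CPM (SD, n = 3 each). These 3 were called by edgeR in all 3 states.

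The abundant riser uc009eml.1 was the exception among the 4. It was at 5930 ± 1397 CPM in hypoxia and 2046 ± 573 CPM in normoxia at 0 h (SD, n = 3 each; edgeR adjusted p = 0.00775), and with IL-6 at 4702 ± 470 and 2532 ± 826 CPM (SD, n = 3 each; log2 fold change 0.89, SE 0.31, edgeR adjusted p = 0.170). The difference between its changes with and without IL-6 was -0.50 on the log2 scale (SE 0.44, edgeR interaction adjusted p = 0.9999, unadjusted p = 0.268), which did not pass the test. Among the 10 largest risers, 9 were called in both other states, and among the 10 largest fallers 7 were. Of the 10 most abundant risers 6 were, and of the 10 most abundant fallers 7. Called in both other states were 112 of all 261 higher calls and 146 of all 480 lower calls. The share of all tested identifiers called in both was not computed. It can be no more than the share called with IL-6 alone, 1.34% higher and 1.56% lower.

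Called at 12 h untreated and in neither other state were 257 identifiers, 80 higher and 177 lower, with 155 of them at least 2-fold. Their other values leaned the same way. The 80 had median log2 fold changes of 0.86 at 0 h, 1.46 at 12 h untreated and 0.81 with IL-6, and 79 and 78 of them were positive at 0 h and with IL-6. The 177 had medians of -0.59, -0.99 and -0.62, with 173 and 177 negative in the other states. Over all tested identifiers the medians were 0.04 at 0 h and 0.03 with IL-6. At an unadjusted p under 0.05 in the same direction by edgeR, 51 of the 80 passed at 0 h and 40 with IL-6, and of the 177 it was 127 and 121. The shares of all tested identifiers with the same sign or passing this threshold were not computed, so these counts have no background.

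The test of the difference itself depended on the block. The counts given first come from fits without a block, which do not account for the shared deviation of same-numbered libraries. For the oxygen difference at 12 h against that at 0 h, edgeR called 0 of 13432 identifiers (260 at an unadjusted p under 0.05) and DESeq2 0. For the oxygen difference with IL-6 against that without it at 12 h, edgeR called 0 (167 at an unadjusted p under 0.05) and DESeq2 0. Among the 257 called at 12 h untreated alone, 27 and 25 had an unadjusted p under 0.05 in the time and the IL-6 interaction. Of all 13432 tested, these numbers were 260 and 167. The 257 were chosen for being called in 1 state alone, which favours small interaction p-values. With the replicate number within each oxygen condition as a block, the interactions called 15 and 6 identifiers by edgeR, 3 and 3 of which were among the 741. In that fit 1347 and 1078 identifiers had an unadjusted p under 0.05. A calibrated test with no true difference would pass a share of 0.05 on average. The unblocked counts were below that share and the blocked counts above it, so the 0 calls without a block say little. All 15 of the time interaction had a lower oxygen difference at 12 h than at 0 h, with interaction log2 values of -2.04 to -0.58. That count was 1 without replicate 1, 5 without replicate 2 and 67 without replicate 3, the last with 33 higher and 34 lower, so the single direction was not kept without replicate 3. The 6 of the IL-6 interaction became 0, 3 and 4 in the same fits.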

How the data were processed

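Total RNA of mouse primary chondrocytes was depleted of ribosomal RNA and sequenced as 50 bp single-end reads, per the labels' protocols. Reads were aligned to mm10 with TopHat2 and counted with HTSeq, and DESeq2 was used by the authors, per the submitters' processing notes; their versions were not stated in any source at hand. The deposited values are raw counts per UCSC transcript identifier, with no normalization. The 5 HTSeq summary lines entered neither the library totals nor any test. In the 6 libraries, reads on overlapping identifiers (ambiguous) were 44.1% ± 3.25 of uniquely aligned reads in hypoxia and 48.1% ± 2.18 in normoxia (SD, n = 3 each; exact permutation p = 0.2), reads outside features are given above, and reads aligned to several places numbered 2.94 ± 1.28 and 2.89 ± 1.25 per assigned read (SD, n = 3 each; exact permutation p = 1). The 6 library measures were adjusted together.

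Counts were analysed with edgeR 4.0.16 in R 4.3.3: filterByExpr by group (13432 identifiers, 99.5% to 99.7% of counts), TMM scaling and the robust quasi-likelihood F-test on all 18 libraries with 1 coefficient per group. SE is the absolute log2 fold change over the square root of F. CPM uses TMM-scaled totals. The test was checked on simulated counts drawn independently for each library. They held no lane effect and no shared deviation of same-numbered libraries, so the check does not cover these. Alternatives used limma 3.58.1 and DESeq2 1.42.0. At most 2 identifiers per direction are printed: the largest change among called identifiers of at least 5 CPM with no overlap, and the highest level among those called, at least 2-fold changed and not overlapping. The libraries follow from their labels, but this comparison and the lists were picked for description with earlier results of these data known.

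Within an oxygen condition, same-numbered libraries deviated together from their group means (correlations across identifiers of 0.23 to 0.63 in hypoxia and 0.47 to 0.69 in normoxia), so the numbers pair the interaction tests. Between hypoxia and normoxia at 12 h untreated the correlations were -0.03, 0.48 and 0.16 for replicates 1 to 3. Since not every one was over 0.1, the numbers were not taken as pairs there, and the oxygen comparison has no block. That choice rests on these same counts. For replicates 1 to 3 the correlations were -0.03, 0.32 and 0.10 at 0 h, and -0.04, 0.50 and 0.49 with IL-6. The library names give each replicate number the same code in both oxygen conditions, and its meaning is not stated, so the libraries may be paired. With the replicate number as a block 1723 identifiers were called, all 741 among them.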

Additional observations from a re-analysis of the deposited data

Results flagged for a closer look

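The oxygen difference at 12 h differed from that at 0 h for 15 identifiers, and from that with IL-6 for 6 identifiers, by edgeR interaction tests with the replicate number within each oxygen condition as a block. Without the block both tests called 0. The 15 averaged 6.44 to 772 CPM over the 6 libraries at 12 h untreated, with median log2 fold changes of hypoxia over normoxia of 0.90 at 0 h and -0.16 at 12 h. Of the 15, 1 was called higher and 2 lower at 12 h untreated. Of the 6, 4 had a higher and 2 a lower oxygen difference with IL-6, and 1 was called higher and 2 lower at 12 h untreated. Leaving out replicate 1, 2 or 3 changed the 15 to 1, 5 and 67 and the 6 to 0, 3 and 4. No cause was tested.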

How the results depend on the processing

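The 741 calls became 300 with only the 6 compared libraries in the fit and 1581 with lane as a term, and leaving out 1 library gave 395 to 498. The fits without hypoxia replicate 1 or 2 gave 395 and 482, and those without normoxia replicate 1, 2 or 3 gave 434, 453 and 483. With the replicate block 1723 were called (706 higher, 1017 lower), and 1774 (829 higher, 945 lower) when lane joined the replicate block. At 12 h untreated, 3 of the 6 libraries correlated best with their own number in the other condition. So few libraries cannot settle whether the numbers are pairs. RLE size factors gave 742, no filter 910, DESeq2 1093, limma voom with duplicateCorrelation (consensus 0.563) 858, hypoxia replicate 3 left out in all 3 groups 914, and thinning to the smallest total, chosen after seeing the data as were the lane term and the blocked fits without 1 number, 569. In all 16 alternatives more identifiers were lower than higher, and 203 of the 741 were called in every one. The time interaction called 15 with the replicate block within oxygen and 3 with no filter, and the IL-6 interaction 6 and 1; blocked fits without replicate 1, 2 or 3 gave 1, 5 and 67 for time and 0, 3 and 4 for IL-6, and unblocked ones 0. The share of the 10 most counted identifiers differed by -2.89 to 1.48 percentage points and multiply aligned reads per assigned read by -0.54 to 0.79 when 1 library was left out, changing sign. Depth limits what can be called at low levels: under 1 CPM the smallest called log2 change was 1.99 in size.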
